A study of Mus musculus with 4 samples.

Results

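The genes described here are the endothelin and nitric oxide genes, 10 entries of the 46072 genes in the deposited table whose gene name was Edn1, Edn2, Edn3, Ednra, Ednrb, Ece1, Ece2, Nos1, Nos2 or Nos3. All 10 were found, each with 1 row, and all 10 were above 0 in at least 1 library and so entered the tests. Expression was measured by RNA-seq of polyadenylated RNA in 4 libraries labelled as brain vessels from wild-type (WT) mice given no treatment. The labels call the cells endothelial and collected by laser capture microdissection (LCM), and the series title adds that the tissue was fixed by perfusion and the cells were found by immunolabelling. The 4 libraries, replicates 1 to 4, form the only group. The labels give no age, sex or strain and no number of animals, so p-values measure only how far these 4 samples scatter, and that scatter may be technical.

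Endothelins are short peptides that act on vessel tone. Each is cut from a longer precursor, first by furin-type proteases and then by an endothelin-converting enzyme, and binds the ETA or ETB receptor, both of which couple to G proteins. On vascular smooth muscle ETA gives constriction, while ETB on endothelium takes up endothelin and triggers release of nitric oxide, and in brain ETB is also found on astrocytes. Nitric oxide is made from arginine by nitric oxide synthases, which need calmodulin and the cofactor tetrahydrobiopterin, and it relaxes smooth muscle by activating soluble guanylate cyclase, which makes cGMP.

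The 3 ligand genes differ from each other in the stretch that codes for the mature peptide, shown here because the ligand family was led by a different gene from the one known for endothelium. The 63 bases (21 codons) lie in exon 2 of each gene on the plus strand (GRCm38), at chr13:42303649-42303711 for Edn1, chr4:120161951-120162013 for Edn2 and chr2:174761749-174761811 for Edn3. Capitals mark the 18 positions at which the 3 genes are not all alike, and the last base of each line is followed in the precursor by the cut of the converting enzymes.
Edn1: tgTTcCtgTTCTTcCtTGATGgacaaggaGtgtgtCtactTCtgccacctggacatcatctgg
Edn2: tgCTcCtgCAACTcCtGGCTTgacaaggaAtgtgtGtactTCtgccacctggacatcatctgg
Edn3: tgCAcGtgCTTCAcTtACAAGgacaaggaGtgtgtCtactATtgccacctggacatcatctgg
Edn1 and Edn2 shared 53 of the 63 bases (84.1%), Edn1 and Edn3 shared 50 (79.4%), and Edn2 and Edn3 shared 48 (76.2%). Most of the differences lay in the first 21 bases, and the last 21 bases were alike in all 3 genes. The sequences are from GENCODE M21 transcripts.

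Values are the authors' FPKM, which summed to between 448678 and 482882 per library. Between libraries, Pearson's r of log2(FPKM + 1) across all genes, which are not independent replicates, was 0.987 to 0.991. As a check of the label, 17 general endothelial markers had a median of 4.29 ± 0.541 FPKM (SD over libraries, n = 4), against 166.9 ± 15.3 FPKM for 12 neuronal and 58.5 ± 3.33 FPKM for 12 astrocyte markers. Medians were 3.66 ± 0.636 FPKM for 10 smooth muscle markers, 3.03 ± 0.174 for 10 pericyte markers, 2.74 ± 0.625 for 10 arterial markers, 7.09 ± 0.783 for 8 oligodendrocyte precursor markers, 16.7 ± 1.36 for 10 microglial markers and 71.2 ± 7.46 for 8 choroid plexus markers. The endothelial median thus lay below those of neuronal, choroid plexus, astrocyte, microglial and oligodendrocyte precursor markers. These levels do not show the RNA to be mainly endothelial. All 12 neuronal, 12 astrocyte, 10 microglial and 8 choroid plexus markers lay above 1 FPKM, as did 13 of the 17 endothelial, 9 of the 10 smooth muscle, 6 of the 10 pericyte, 6 of the 10 arterial and 7 of the 8 oligodendrocyte precursor markers (limma, described below), beside 47.7% of all genes tested. Below 1 FPKM lay 3 of the arterial markers and 1 each of the endothelial, pericyte, smooth muscle and oligodendrocyte precursor markers, beside 40.1% of all genes, and the smooth muscle call was lost with no moderation. The arterial and pericyte shares above 1 FPKM were near that of all genes. The highest markers were Ly6c1 (68.2 FPKM) and Ly6a (49.5) for endothelium, Snap25 (1433) and Stmn3 (523) for neurons, and Aldoc (471) and Gja1 (113) for astrocytes, and the lowest of these 3 lists were Erg (0.368), Thy1 (24.4) and Slc4a4 (12.3). Which cells the RNA of the endothelin and nitric oxide genes came from was not tested, and fewer cells of a type and less RNA per cell cannot be told apart in such libraries.

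**Figure D1:**
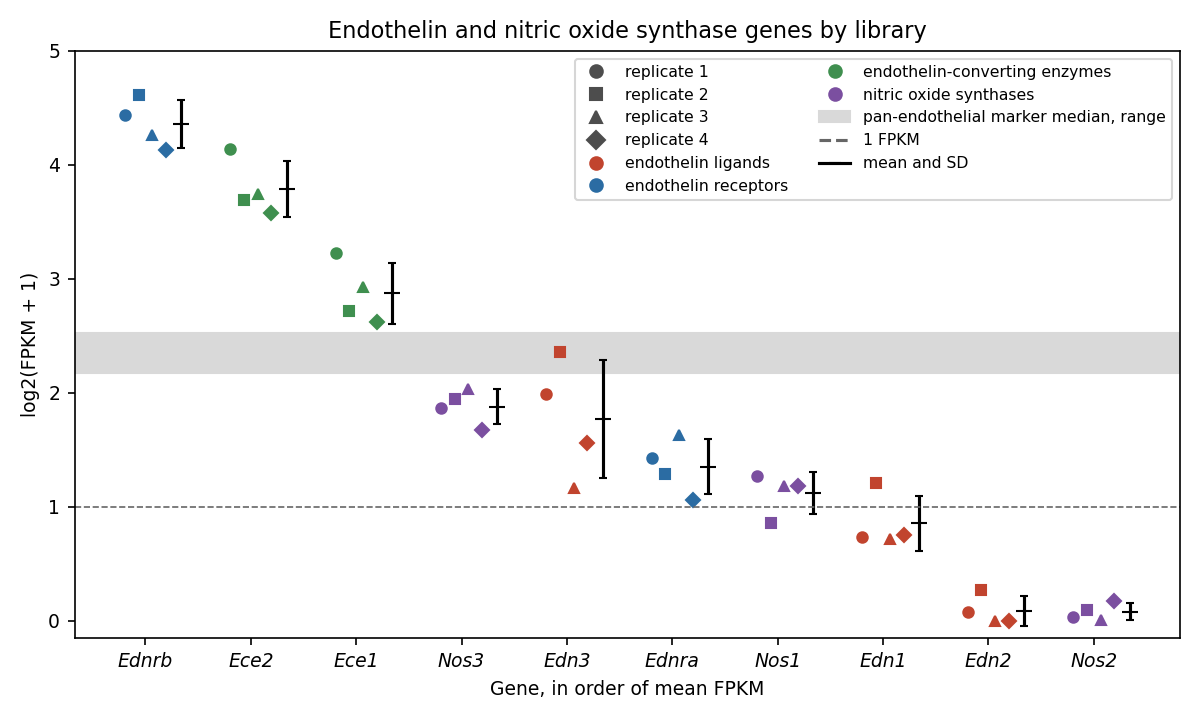
Level of each of the 10 genes, as log2(FPKM + 1), in each library (marker shape) with the mean and SD over 4 libraries beside it, a dashed line at 1 FPKM and a grey band for the range of the pan-endothelial marker median over libraries. Ednrb, Ece2 and Ece1 lie above the band in all 4 libraries, and Edn2 and Nos2 lie near 0.

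Among the ligands, Edn3 was measured highest, Edn1 lower and Edn2 lowest. Edn3, an endothelin that prefers ETB and is known from neural crest development (ENSMUSG00000027524, chromosome 2, 174760619 to 174784042), had 2.98, 4.11, 1.24 and 1.94 FPKM in replicates 1 to 4, a mean of 2.57 ± 1.25 (SD, n = 4). Its highest library was 3.31 times its lowest, and its coefficient of variation of 48.7% was larger than that of 95.7% of the 13654 genes that averaged 1 FPKM or more, whose median was 16.9%. Edn1, the endothelin known as the product of vascular endothelium (ENSMUSG00000021367, chromosome 13, 42301476 to 42307990), had 0.664, 1.32, 0.642 and 0.685 FPKM, a mean of 0.827 ± 0.326. Replicate 2 stood apart for Edn1, with the other 3 libraries within 0.642 to 0.685 FPKM.

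Edn2, a closely related endothelin (ENSMUSG00000028635, chromosome 4, 120161206 to 120167360), had 0.0522 and 0.209 FPKM in replicates 1 and 2 and was listed at 0 in replicates 3 and 4. All 3 ligands were thus highest in replicate 2. In the same library the marker medians of neurons (187 FPKM), astrocytes (62.2), interneurons (55.0), microglia (17.9) and oligodendrocyte precursors (8.02) were also highest, and that of choroid plexus (60.6) was lowest. Those of endothelium (4.76) and smooth muscle (4.35) were highest in replicate 1 and that of arterial endothelium (3.50) in replicate 3. The pericyte median was 3.18 in both replicates 2 and 3, its highest. The part of these cells in the ligand values was not tested. Within libraries Edn3 exceeded Edn1 in 4 of 4, by 0.91 ± 0.36 on the log2(FPKM + 1) scale (SD; limma adjusted p = 0.00016 with the lower gene subtracted from all genes, as in every pair below, and 0.0244 with no moderation). Limma p-values of all such pairs are too small, because the fit pooled the spread of all genes. Those with no moderation use only the spread of the pair itself. The ratio of Edn3 to Edn1 ranged from 1.94 to 4.48 over the libraries. Edn1 exceeded Edn2 by 0.77 ± 0.12 in 4 of 4 libraries (limma adjusted p = 0.000353, and 0.0026 with no moderation).

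Of the receptors, Ednrb was far above Ednra. Ednrb, which encodes ETB (ENSMUSG00000022122, chromosome 14, 103814625 to 103844402), had 20.6, 23.5, 18.1 and 16.5 FPKM, a mean of 19.7 ± 3.07 (SD, n = 4), and was the highest of the 10 genes, above 86.0% of all genes tested. Ednra, which encodes ETA (ENSMUSG00000031616, chromosome 8, 77663031 to 77724464), had 1.69, 1.45, 2.10 and 1.08 FPKM, a mean of 1.58 ± 0.429. The values of the receptors did not overlap, and Ednrb was 13.1 ± 3.43 times Ednra over the 4 libraries, with a range of 8.64 to 16.3. The difference on the log2(FPKM + 1) scale was 3.01 ± 0.29 (SD; limma with no moderation, adjusted p = 0.00156). The moderated limma adjusted p of 2.22e-69 is too small, because that fit pooled the spread of all genes. Smooth muscle markers, a cell type in which Ednra is known, were present in the same libraries, led by Myl9 at 58.1 ± 6.29 and Acta2 at 55.2 ± 7.18 FPKM, with Lmod1 lowest at 0.655 ± 0.21.

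Both converting enzymes were measured well above 1 FPKM in all 4 libraries. Ece2, a membrane protease that works in acidic compartments and is known from neural tissue (ENSMUSG00000022842, chromosome 16, 20629828 to 20646485), had 16.6, 11.9, 12.4 and 10.9 FPKM, a mean of 12.96 ± 2.51 (SD, n = 4). Ece1, the enzyme known for converting big endothelin in endothelium (ENSMUSG00000057530, chromosome 4, 137862237 to 137965229), had 8.34, 5.57, 6.63 and 5.15 FPKM, a mean of 6.42 ± 1.42. Both were highest in replicate 1 and lowest in replicate 4. This was not particular to them: Ednrb, Nos3 and Ednra were also lowest in replicate 4, and Nos1 was also highest in replicate 1. The summed FPKM of all 10 genes was 55.0 in replicate 1 and 39.8 in replicate 4. Why these libraries differed was not tested. The ratio of the enzymes hardly moved: Ece2 was 2.03 ± 0.123 times Ece1, with a range of 1.87 to 2.13. The difference of 0.91 ± 0.07 on the log2(FPKM + 1) scale had the smallest SD of the 8 pairs within a family (limma adjusted p = 3.47e-07, and 0.0011 with no moderation). The Ece2 value is uncertain, because the protein-coding gene Gm49333 shares 2937 exonic bases with it on the same strand (57.5% of its exonic bases) and has no value of its own used here.

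Of the nitric oxide synthases, the endothelial gene Nos3 was highest, the neuronal gene Nos1 lower and the inducible gene Nos2 near 0. Nos3 (ENSMUSG00000028978, chromosome 5, 24364810 to 24384474) had 2.65, 2.84, 3.08 and 2.19 FPKM, a mean of 2.69 ± 0.376 (SD, n = 4). Nos1 (ENSMUSG00000029361, chromosome 5, 117781032 to 117958840) had 1.41, 0.808, 1.26 and 1.26 FPKM, a mean of 1.19 ± 0.262. Nos3 lay above Nos1 in every library and their values did not overlap. Their ratio was 2.39 ± 0.808, largest in replicate 2 at 3.52, where Nos1 was lowest. The difference was 0.76 ± 0.26 on the log2(FPKM + 1) scale (SD; limma adjusted p = 1.53e-05, and 0.0147 with no moderation). The annotation lists 7 transcripts of Nos1, the longest of 10123 bases, and 2 of Nos3, the longest of 4132. An error from the transcript length used would be shared by all 4 libraries, so the p-values do not measure it.

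Nos2, the synthase that immune cells make on stimulation (ENSMUSG00000020826, chromosome 11, 78920787 to 78960254), had 0.0235, 0.0686, 0.00591 and 0.131 FPKM. It lay below Nos1 by 1.04 and below Nos3 by 1.80 on the log2(FPKM + 1) scale, each in 4 of 4 libraries (limma with no moderation, adjusted p = 0.0049 and 0.00135). Markers of microglia were present beside it, among them C1qb at 67.0 ± 7.51 FPKM, with Cx3cr1 lowest at 5.88 ± 1.80. For Nos3, 1040 exonic bases (25.2%) are shared with the antisense gene Gm15587, at 0.118 FPKM on average, and 294 (7.1%) with Atg9b on the opposite strand, at 0.837 FPKM. The strand setting is not given, so reads of these partners may be shared. Genes overlapping the exons of Edn1, Ednra and Nos1 on the opposite strand share 1.6%, 1.7% and 2.4% of them.

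**Figure D2:**
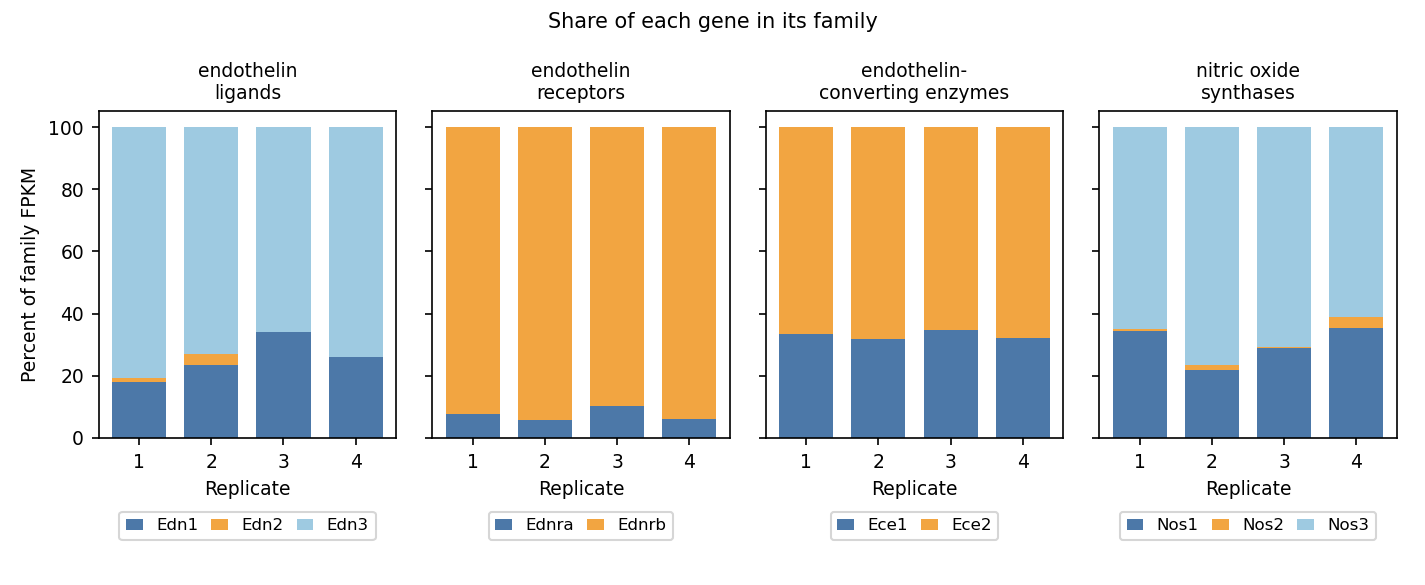
Percent of the summed FPKM of each family held by each gene, per library (bars, replicates 1 to 4). Edn3, Ednrb, Ece2 and Nos3 hold the largest share of their family in all 4 libraries.

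Within each family the order of the members was the same in all 4 libraries. Edn3 held 73.4% ± 5.99 of ligand FPKM (SD, n = 4), Edn1 25.4% ± 6.69 and Edn2 1.41% and 3.71% in replicates 1 and 2 and 0 in the others. Ednrb held 92.5% ± 2.08 of receptor FPKM and Ednra 7.47% ± 2.08. Ece2 held 66.9% ± 1.36 of converting enzyme FPKM and Ece1 33.1% ± 1.36. Nos3 held 68.3% ± 6.71 of synthase FPKM, Nos1 30.1% ± 6.24 and Nos2 0.576%, 1.84%, 0.136% and 3.64% in replicates 1 to 4. The mean Nos2 share was 1.55% over all 4 libraries and 0.852% without replicate 4. Summed over a family, receptors measured 21.3 ± 3.14 FPKM, converting enzymes 19.4 ± 3.903, synthases 3.94 ± 0.349 and ligands 3.46 ± 1.63. Relative to its mean the ligand sum varied most, from 1.89 FPKM in replicate 3 to 5.64 in replicate 2.

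**Figure D3:**
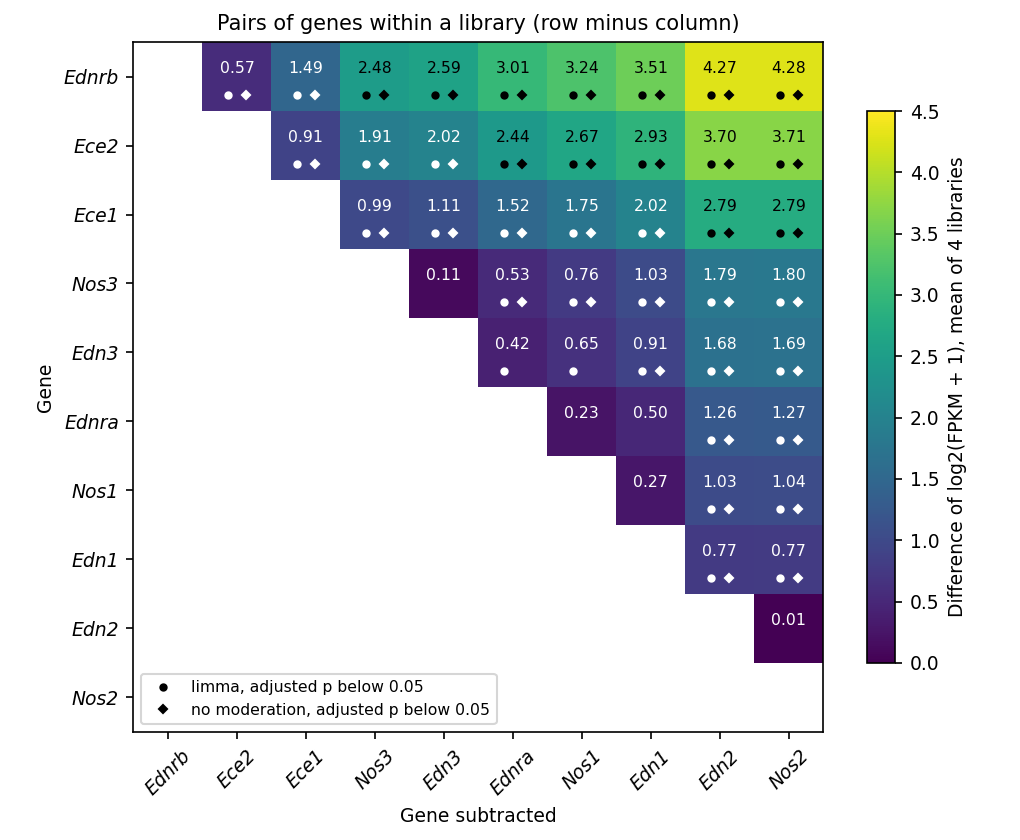
Difference of log2(FPKM + 1) between each pair of the 10 genes within a library (row gene minus column gene, mean of 4 libraries, colour and number), with a circle for an adjusted p below 0.05 by limma and a diamond for the same with no moderation. The pairs with no mark are neighbours in level, apart from Ednra with Edn1.

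From high to low the mean levels ran Ednrb, Ece2, Ece1, Nos3, Edn3, Ednra, Nos1, Edn1, Edn2 and Nos2. The tests of pairs measure scatter between libraries, and not an error in the transcript length used for a gene, which all libraries share. Of the 45 pairs, 38 differed with no moderation and 40 by limma, whose p-values against a gene are too small. The limma call of 3 pairs (Edn3 with Ednra, Edn3 with Nos1, Ednra with Edn1) depended on which gene was subtracted, and 38 pairs differed both ways, while with no moderation no call depended on it. Beside these counts, 84.9% of all genes by limma and 78.4% with no moderation lay on either side of the member they were set against, over the same 10 fits. All 8 pairs within a family differed by both tests, whichever gene was subtracted. With 4 libraries the smallest exact sign-flip p is 0.125, which every family pair reached.

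Of the 9 pairs of neighbours in that order, 5 differed by limma and 4 with no moderation. Ednrb exceeded Ece2 by 0.57 ± 0.26 in 4 of 4 libraries, Ece2 exceeded Ece1, Ece1 exceeded Nos3 by 0.99 ± 0.25, and Edn1 exceeded Edn2 (differences in log2(FPKM + 1), SD, n = 4). Nos3 and Edn3 could not be told apart (0.11, 95% interval -0.76 to 0.98 with no moderation), nor could Ednra and Nos1 (0.23, -0.20 to 0.66), Nos1 and Edn1 (0.27, -0.40 to 0.93) or Edn2 and Nos2 (0.01, -0.23 to 0.24). Without replicate 2, Nos1 lay above Edn1 by 0.47 (limma adjusted p = 0.0312). Limma p-values against a gene are too small, and no fit without moderation was made with a library left out. Edn3 lay above Ednra by 0.42 ± 0.64 in 3 of 4 libraries, which passed by limma (adjusted p = 0.0362) but not with Edn3 as the gene subtracted (adjusted p = 0.287), with no moderation (adjusted p = 0.304) or without replicate 1, 2 or 4 (adjusted p = 0.142, 0.419 and 0.066). No order is given for this pair.

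Against a level of 1 FPKM, Ednrb, Ece2, Ece1, Nos3 and Edn3 lay above, Edn2 and Nos2 lay below, and Ednra, Nos1 and Edn1 were undecided (limma, adjusted over all genes). These are 5 and 2 of 10 genes, and of all genes tested 47.7% lay above and 40.1% below, so the shares of the 10 genes are near that background or under it. With no moderation 4 lay above and 2 below, beside 46.7% and 37.2% of all genes. As log2(FPKM + 1), Ednrb lay 3.36 ± 0.09 (SE) above that level (limma adjusted p = 1.2e-06) and Nos3 0.88 ± 0.12 above (limma adjusted p = 0.000902). The Edn3 call (0.77 ± 0.22, limma adjusted p = 0.0224) was lost with no moderation (adjusted p = 0.0687) and without replicate 1 or 2 (adjusted p = 0.0762 and 0.0623). The 3 undecided genes measured 0.35 ± 0.14 for Ednra, 0.12 ± 0.12 for Nos1 and -0.15 ± 0.12 for Edn1 (SE; limma adjusted p = 0.0603, 0.374 and 0.298). Without replicate 2, in which Edn1 stood apart, Edn1 lay at -0.27 and passed as below 1 FPKM (limma adjusted p = 0.0463). Rescaling each library to the same total, as in TPM, raises log2 FPKM by 1.10 on average over libraries, and log2(FPKM + 1) by less. This rescaling placed Ednra and Nos1 above 1 (limma adjusted p = 0.00259 and 0.00658) and left Edn1 undecided at 0.44 (limma adjusted p = 0.0723).

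Set against the median of the endothelial markers in the same library, 3 of the 10 genes lay above and 7 below by limma, beside 31.5% and 60.3% of all genes tested. With no moderation the counts were 3 and 6, beside 29.6% and 57.9%. Ednrb lay 1.96 ± 0.16 above on the log2(FPKM + 1) scale (SD, n = 4), Ece2 1.39 ± 0.16 and Ece1 0.48 ± 0.17, each in 4 of 4 libraries (limma with no moderation, adjusted p = 0.000526, 0.000947 and 0.0137). Against the mean of the marker list in place of its median, Ece1 lay at -0.05 and did not pass (limma adjusted p = 0.701). Nos3 lay -0.52 ± 0.10 from the endothelial median and Edn1 -1.54 ± 0.27 (limma with no moderation, adjusted p = 0.00295 and 0.00247). Ednra lay at -1.05 ± 0.15 and Nos1 at -1.28 ± 0.24, and Edn2 and Nos2 were farthest below, at -2.31 ± 0.17 and -2.32 ± 0.22. Edn3, at -0.63 ± 0.50, passed by limma (adjusted p = 0.0007) but not with no moderation (adjusted p = 0.0957) nor without replicate 3 (adjusted p = 0.0559).

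**Figure D4:**
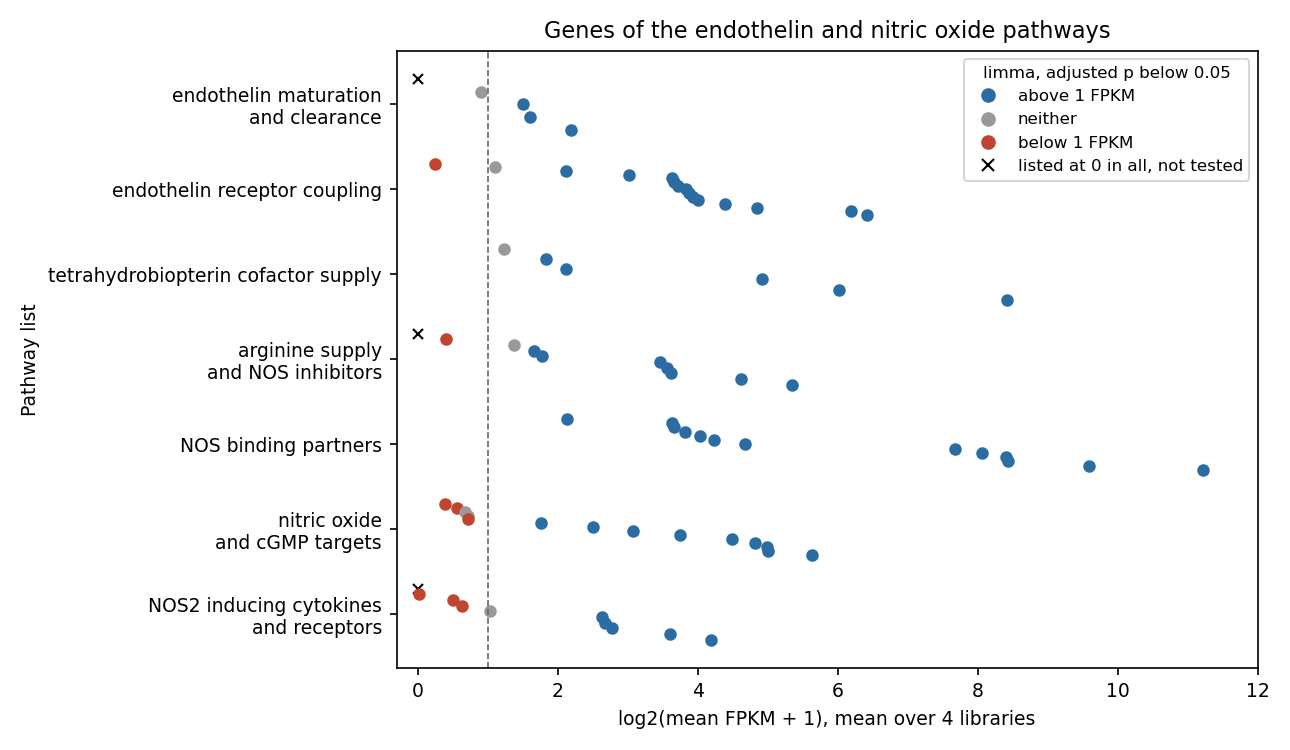
Mean level of the genes of 7 pathway lists, as log2(mean FPKM + 1) over 4 libraries, 1 point per gene, coloured by the limma call against 1 FPKM (dashed line). Crosses are the 3 genes listed at 0 in all libraries, and 55 of the 70 tested genes lie above the line by the test.

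Around these 10 genes, the rest of both pathways was mostly measured above 1 FPKM. Of 73 list genes 70 were tested, of which 55 lay above, 8 below and 7 were undecided (limma, adjusted over all genes), or 78.6% above beside 47.7% of all genes tested. Kel, a protease that cuts big endothelin, Agxt2, which breaks down a methylated arginine, and Ifng, interferon gamma, were listed at 0 in all 4 libraries.

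On the endothelin side, 3 of the 5 maturation and clearance genes lay above 1 FPKM, beside 47.7% of all genes tested, and 1 was undecided. The median of the list was 1.46 ± 0.312 FPKM (SD, n = 4), close to the 1.43 ± 0.107 of all genes tested. The 3 above were Pcsk7, a proprotein convertase, at 3.57 ± 0.683 FPKM, Ecel1, a neuronal relative of the converting enzymes, at 2.04 ± 0.904, and Furin, which trims the endothelin precursor, at 1.83 ± 0.267. The Ecel1 call (limma adjusted p = 0.0486) was lost with no moderation (adjusted p = 0.105) and without replicate 1, 2 or 4 (limma adjusted p = 0.15, 0.146 and 0.0819), which left 2 genes above. Of 15 receptor coupling genes 13 lay above and 1 below, beside 47.7% and 40.1% of all genes tested, with a median of 13.2 ± 1.25 FPKM. The G protein subunits Gnai2 and Gnai1 measured 84.6 ± 5.37 and 71.7 ± 11.2 FPKM and Gna11, of the class that activates phospholipase C, 27.7 ± 1.37. Itpr3, a calcium release channel, was lowest at 0.182 ± 0.102 FPKM and lay below 1 FPKM.

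On the nitric oxide side, 5 of 6 tetrahydrobiopterin genes lay above 1 FPKM and none below, beside 47.7% and 40.1% of all genes tested. Their median was 16.4 ± 3.04 FPKM (SD, n = 4). Qdpr, which regenerates the cofactor, was highest at 342 ± 43.9 FPKM, and Pts and Spr, enzymes of its synthesis, measured 63.6 ± 4.19 and 29.2 ± 5.41. Gch1, which catalyses the first step of cofactor synthesis, measured 2.57 ± 0.866 FPKM. Of 10 genes of arginine supply and synthase inhibitors 9 were tested, and the median of the list was 5.89 ± 0.182 FPKM. Of those tested 7 lay above and 1 below, beside the same shares of all genes tested. Prmt1, a methyltransferase of arginine residues, measured 39.8 ± 8.22 FPKM, Ddah1, which clears methylated arginines that inhibit the synthases, 23.7 ± 1.63, and Ass1, which helps to remake arginine, 11.2 ± 1.32.

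All 13 genes of synthase binding partners lay above 1 FPKM, beside 47.7% of all genes tested, with a median of 24.6 ± 3.58 FPKM (SD, n = 4). The calmodulin gene Calm2 measured 2371 ± 244 FPKM, the chaperone Hsp90ab1 346 ± 21.05, and Nostrin, an adaptor of the endothelial synthase, was lowest at 3.41 ± 0.941. Of 14 nitric oxide and cGMP targets 9 lay above and 3 below, beside 47.7% and 40.1% of all genes tested. Their median was 6.04 ± 0.987 FPKM, and without replicate 2 only 1 lay below. Adh5, which breaks down nitrosoglutathione, measured 48.8 ± 6.52 FPKM, and the phosphodiesterases Pde1b and Pde2a 30.9 ± 2.97 and 30.9 ± 3.86. Soluble guanylate cyclase is a dimer of an alpha and a beta subunit. Its beta subunit gene Gucy1b1 measured 25.6, 19.9, 21.4 and 18.7 FPKM and the alpha gene Gucy1a1 15.6, 10.6, 9.48 and 14.1 FPKM, both chosen after their values were seen, while the other alpha gene Gucy1a2 was lowest of the list at 0.314 ± 0.0915 and lay below 1 FPKM. Of 10 genes for cytokines that induce Nos2 and their receptors 9 were tested, and the median of the list was 2.52 ± 0.53 FPKM. Of those tested 5 lay above 1 FPKM and 3 below, near the 47.7% and 40.1% of all genes tested. Only 2 lay below with no moderation, with either smaller pseudocount or with any 1 library left out, and 1 with rescaling. Ifngr2 and Ifngr1, chains of the interferon gamma receptor, measured 17.2 ± 2.21 and 11.2 ± 0.76 FPKM and Tnfrsf1a, a tumour necrosis factor receptor, 5.85 ± 1.97.

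Among 176 list genes, those closest in level to each member were taken as the pair with the smallest root mean square difference of log2(FPKM + 1) over the 4 libraries, a measure of level that says little of pattern with 4 samples. For Ednrb they were Aldh1l1, an astrocyte marker, at 20.7 ± 3.43 FPKM (root mean square difference 0.15) and Cldn5, a claudin of brain endothelium, at 19.0 ± 0.698 (0.16). For Nos3 they were the endothelial markers Eng, endoglin, at 2.76 ± 0.479 (0.10), and Kdr, a receptor for vascular endothelial growth factor, at 2.39 ± 0.367 (0.16). For Edn3 they were Gch1 (0.21) and Ecel1 (0.24). Both, like Edn3, were highest in replicate 2 and lowest in replicate 3. They were picked for closeness to Edn3 in each library, so this match is no separate evidence of a shared pattern. Ecel1 measured 2.69, 2.90, 1.02 and 1.55 FPKM in replicates 1 to 4, and Gch1 2.79, 3.39, 1.34 and 2.75. For Ece2 they were Gna13 (0.18) and Slc4a4 (0.20), for Ece1 Arrb1 (0.19) and Flt1 (0.26), for Ednra Slc7a2 (0.21) and Furin (0.23), and for Nos1 Itpr2 (0.21) was among them.

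Levels were uneven among markers of interneurons in which Nos1 is known, a list not confined to genes of those cells. Of 6 such genes 4 lay above 1 FPKM and 1 below (limma), beside 47.7% and 40.1% of all genes tested. The 4 above were Sst, Npy, Gad1 (87.3 ± 2.71 FPKM) and Gad2 (19.9 ± 2.84), and Tacr1 was undecided at 0.701 ± 0.229. Gad1, Gad2 and Tacr1 were chosen after their values were seen. Sst, somatostatin, measured 172 ± 12.5 FPKM and Npy, neuropeptide Y, 93.7 ± 11.2. Chodl, a marker of cortical Nos1 neurons in mouse, was lowest, with 0.426 and 0.887 FPKM in replicates 2 and 3 and listed at 0 in replicates 1 and 4. Its call below 1 FPKM (limma adjusted p = 0.0176) was lost with no moderation (adjusted p = 0.0726) and without replicate 1 or 4 (limma adjusted p = 0.0616 and 0.0609). Nos1 itself was lowest in replicate 2. Of the pericyte list Vtn measured 61.4 ± 9.07, Rgs5 19.7 ± 2.73 and Anpep 0.311 ± 0.0654 FPKM. Of the arterial list Hey1 measured 19.0 ± 2.15, Gkn3 8.43 ± 1.33 and Dll4 0.289 ± 0.181 FPKM. Of the oligodendrocyte precursor list Cspg5 measured 78.3 ± 10.1, Olig1 50.2 ± 7.12 and Vcan 0.369 ± 0.16 FPKM, and of the choroid plexus list Ttr 14493 ± 2381, Enpp2 726 ± 114 and Aqp1 5.55 ± 1.55 (SD, n = 4 each).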

How the data were processed

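Libraries were built from enriched, fragmented mRNA with random primers (NEBNext UltraExpress kit) after a Zymo column extraction, per the labels' protocols. StringTie 2.2.1, HISAT2 2.2.1, bcl2fastq 2.20, SAMtools and build GRCm38 are named in the submitters' processing notes. Their roles, the annotation release and the strand setting were not given in the sources used here. The authors deposited FPKM (fragments normalised to transcript length and to the library's mapped fragments), so each value depends on the transcript length used and on the library's mapped total, and read depth is unknown.

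Columns were tied to libraries by the library name in the labels, and 0 columns were left out. With 1 group, genes were set against a fixed level, a marker median or another gene within a library. Values of log2(FPKM + 1) (pseudocount 1) were tested with limma 3.58.1 under R 4.3.3 (2-sided, mean-variance trend) over the 25206 genes above 0 in any library, with Benjamini-Hochberg adjustment over all of them and a threshold of 0.05. Against a gene or a median, 1 shared level is subtracted from all genes. limma then pooled their spread (75618 degrees of freedom for the marker median), so its p-values are too small. An alternative added after seeing the data, limma with no moderation (3 degrees of freedom), is therefore given beside those calls. The 1 FPKM fits, moderated or not, were tested on simulated data, and those against a gene or a median were not. The outcome of that simulation is not reported here, so it adds no support to the 1 FPKM calls.

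The 10 genes and the 17 lists (176 entries, 73 of them in 7 pathway lists) were chosen with earlier results of these data known. Named beside the 10 genes were the 3 highest and the lowest of each pathway list, the 2 highest and the lowest of each marker list, and the 2 list genes nearest in level to each member of at least 1 FPKM. Some genes that the rule names are not reported here. Genes outside this rule are named as chosen after their values were seen. Gucy1a1, Gucy1b1 and Irag1 stand in the table as Gucy1a3, Gucy1b3 and Mrvi1. Positions came from GENCODE M21 (GRCm38). Alternatives covered the pseudocount, scaling, filters, variance model, list summary and each library left out. Figures were drawn with matplotlib 3.10.9.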

Additional observations from a re-analysis of the deposited data

Results flagged for a closer look

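Of 85 values examined over the 4 libraries (genes named by the rule and family shares), 4 had a library whose gap to its neighbour exceeded Dixon's 95% limit, where chance flags about 1 in 20. Edn1 stood apart in replicate 2 at 1.32 FPKM. Nostrin, an adaptor of the endothelial synthase, stood apart in replicate 4 at 2.001 FPKM, the lowest of its 4 values. Kdr, a marker of endothelium, stood apart in replicate 3 at 2.93 FPKM, and Olig1, a marker of oligodendrocyte precursors, in replicate 2 at 60.9 FPKM.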

How the results depend on the processing

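Over 35 tested values (each gene against 1 FPKM, against the endothelial median, and pairs within a family or next in order), 430 of 456 combinations with an alternative kept direction and side of the threshold, 11 lost the call, 8 gained it and 7 changed sign. The sign changes touched differences near 0 that had not passed, apart from that of Ece1. Edn1 against 1 FPKM was 0.44 with libraries rescaled as TPM. Ece1 lay 0.48 above the endothelial median and passed with and without moderation, but lay at -0.054 against the endothelial mean. Nos3 minus Edn3 was -0.14 without replicate 3 and 0.287 without replicate 2, the range with 1 library left out. Edn2 minus Nos2 was -0.028 and -0.53 with pseudocounts of 0.1 and 0.01 and ranged from -0.049 to 0.070 with 1 library left out. Without replicate 2, Edn1 lay below 1 FPKM (limma adjusted p = 0.0463) and Nos1 above Edn1 (limma adjusted p = 0.0312, not fitted without moderation). Ednra lay above 1 FPKM with a pseudocount of 0.01, without mitochondrial genes, with the filter of 0.1 FPKM and with no mean-variance trend (limma adjusted p = 0.0446, 0.0353, 0.0416 and 0.0299). Leaving out mitochondrial genes raised log2 FPKM by 0.16 on average over libraries, and log2(FPKM + 1) by less. The filter of 0.1 FPKM removed Edn2 and Nos2, which left 0 genes below 1 FPKM, 25 differing pairs and 4 within families. Pathway genes below 1 FPKM numbered 4 with a pseudocount of 0.01, 2 with rescaling, and 5 to 7 with 1 library left out, the 5 without replicate 2. With a library left out, 4 to 5 of the 10 genes lay above and 2 to 3 below 1 FPKM, and 39 to 40 pairs differed. Of the nitric oxide and cGMP targets 1 lay below with a pseudocount of 0.01 and 0 with rescaling, which also left 0 arterial markers below. No paired analysis was possible because the series has 1 group, so replicate numbers match no samples across groups, and genes were compared within each library. Read depth is unknown, so counting error at low FPKM could not be given, and Edn2 and Nos2 rest on values near 0.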
